A study of Mus musculus with 20 samples.

Results

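The receptors for serotonin, dopamine, noradrenaline and adrenaline, histamine and acetylcholine were examined in whole-brain RNA of mice with and without Katnal2. They were taken as the protein-coding genes whose mouse symbol begins with Htr, Drd, Adra, Adrb, Chrm, Chrn or Hrh and continues in the pattern of a receptor name, which gave 46 of the 19463 genes measured. They comprised 12 serotonin, 5 dopamine, 9 adrenergic, 3 histamine, 5 muscarinic and 12 nicotinic genes. Htr3b, Htr2b, Hrh4 and Chrna9, which the annotation also holds, were not analysed here.

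The mice were male C57BL/6J animals at 3 weeks (P21) or 10 weeks (P70) of age, with 5 mice in each of the 4 groups P21 WT, P21 KO, P70 WT and P70 KO. KO mice were homozygous for a frame-shifting deletion of Katnal2 exon 3 in every cell of the body, made from a single EUCOMM targeted stem cell line (Katnal2tm1a(EUCOMM)Wtsi) by Flp and then cell-permeable Cre in embryos. Different animals were used at each age, so an age difference is one between groups of mice, and age cannot be told apart from the time at which brains of that age were collected. The comparisons ask whether receptor transcripts differ between KO and WT brains at either age, and how they differ between juvenile and adult brains in each genotype.

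Most of these receptors are G protein-coupled. Gs-coupled members (Drd1, Drd5, Htr4, Htr6, Htr7, Hrh2 and the beta-adrenergic receptors) raise cAMP, Gi/o-coupled members (the Htr1 and alpha-2 adrenergic receptors, Drd2 to Drd4, Chrm2, Chrm4, Hrh3) lower it, and Gq/11-coupled members (Htr2a, Htr2c, the alpha-1 adrenergic receptors, Chrm1, Chrm3, Chrm5, Hrh1) release calcium through phospholipase C. The nicotinic subunits and Htr3a form ligand-gated ion channels. The amines are released by small groups of midbrain, brainstem and hypothalamic neurons whose axons reach most of the brain, so most receptor RNA in a whole brain comes from the target cells, and a smaller share from autoreceptors on the amine neurons themselves.

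Levels are DESeq2-normalized counts, and levels of different genes are compared per kb of annotated exon. As a check of the labels, the targeted gene Katnal2 stood at 78.1 to 96.0 in P21 KO mice and 99.3 to 115.4 in P21 WT mice, and at 95.1 to 125.5 in P70 KO and 101.3 to 141.5 in P70 WT mice. The gene-level value also counts the exons that remain after the deletion, so it does not check the genotype by itself. The normalized values of a mouse summed to 27310523 to 28423042, which is not sequencing depth. The P70 KO and P70 WT mice numbered 5 stood apart from their groups, with a root-mean-square log2 distance of 0.67 and 0.55 from their group mates, the largest of all 20 mice, and results at P70 are given with and without them where they matter.

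A pair of regulatory sequences is shown first because their genes represent both directions of the age differences reported below and because RefSeq and GENCODE place their first base at the same position. They are the 250 bases before the start of Hrh1, which was higher at P70, at chr6:114397686-114397935 on the plus strand, and the 250 bases before the start of Htr2c, which was lower, at chrX:146962263-146962512 on the plus strand (RefSeq sequences, GRCm38.p6). Capitals mark GGGCGG, the core of the GC box, and CCAAT, the CCAAT box, on either strand.
Hrh1: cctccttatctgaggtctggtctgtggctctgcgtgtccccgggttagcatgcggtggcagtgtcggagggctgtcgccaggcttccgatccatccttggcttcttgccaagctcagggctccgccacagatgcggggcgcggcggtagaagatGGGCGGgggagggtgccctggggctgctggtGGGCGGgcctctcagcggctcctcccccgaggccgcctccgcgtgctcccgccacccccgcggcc
Htr2c: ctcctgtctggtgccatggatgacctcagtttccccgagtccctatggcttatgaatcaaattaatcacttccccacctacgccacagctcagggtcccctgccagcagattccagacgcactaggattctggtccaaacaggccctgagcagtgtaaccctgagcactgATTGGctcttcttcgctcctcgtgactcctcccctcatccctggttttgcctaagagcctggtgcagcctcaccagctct

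The Hrh1 window held 2 GC boxes, 96 and 65 bases before the start, and 71.2% of its bases were G or C. The Htr2c window held a CCAAT box on the opposite strand 80 bases before the start and had a GC content of 55.6%. RefSeq promoter windows were found for 35 of the 46 receptor genes, 44 windows in all. A GC box was present in 25 of the 44 receptor windows and in 32.7% of all 32851 windows, a CCAAT box in 12 and in 33.8%, and TATAAA in 2 and in 12.4%. Some genes have several windows (Hrh1 has 4), and some of these overlap, so the windows are not independent. No receptor window held TGACGTCA, the full cAMP response element, which was found in 1.55% of all windows, and this says only that these letters were not in the 250 bases searched on both strands. The median GC content was 60.6% in the receptor windows and 52.4% in all windows. These matches describe the sequences, and factor binding was not measured.

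Receptor levels differed widely per kb, and the ranking was led by receptors of histamine and acetylcholine. Hrh3, the presynaptic histamine auto- and heteroreceptor, had the highest level at 884 normalized counts per kb, which placed it at percentile 92.8 of all genes in the table. Chrm1, the main Gq/11-coupled muscarinic receptor of forebrain neurons, followed at 547 per kb. Chrnb2 and Chrna4, which assemble into the most abundant nicotinic receptor of brain, stood at 306 and 257 per kb. The highest members of the other families were Adra1d at 302, Drd2 at 268 and Htr2c at 184 normalized counts per kb. At the other end, Drd4, Chrna10, Chrna1, the muscle-type alpha subunit, and Drd3 stood at 2.91, 3.20, 3.39 and 6.46 per kb.

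By family, the 5 muscarinic genes made up 21.1% of the summed level per kb, the 3 histamine genes 19.1%, the 9 adrenergic genes 18.9%, the 12 serotonin genes 17.6%, the 12 nicotinic genes 13.8% and the 5 dopamine genes 9.44%. By coupling, the 15 Gi/o-coupled genes made up 41.2% of that sum in P21 WT and 43.7% in P70 WT mice, and the 9 Gs-coupled genes 12.4% and 11.5%. The summed serotonin receptor level was 997 ± 49.1 per kb (SD, n = 5) in P21 WT, 967 ± 36.5 in P21 KO, 898 ± 89.7 in P70 WT and 872 ± 113 in P70 KO mice. The summed adrenergic level was 940 ± 33.8 per kb (SD, n = 5) in P21 WT, 956 ± 38.8 in P21 KO, 1036 ± 39.2 in P70 WT and 1062 ± 52.5 in P70 KO mice. These sums were not tested. The lowest P70 serotonin sums, 749 in WT and 686 in KO mice, were those of the mice numbered 5.

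**Figure D1:**
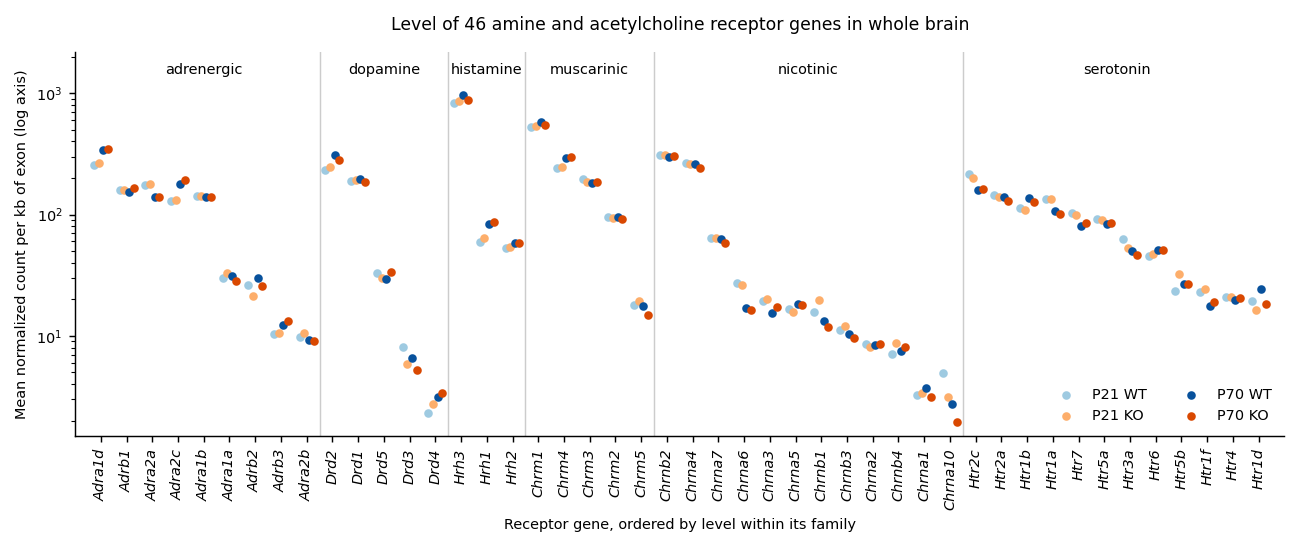
Mean normalized count per kb of exon (log axis) of each receptor gene, grouped by family and ordered by level, with 1 point for each of the 4 groups of 5 mice. Hrh3 (884 per kb over all mice) and Chrm1 (547) lie highest and Drd4 (2.91) lowest, and for most genes the 4 group means lie close together compared with the distances between genes.

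KO and WT brains were compared first within each age. At P21 none of the 45 receptor genes tested was called by limma (adjusted p under 0.05), beside 0% of all 17610 genes, and at P70 none of 45 was called, beside 0% of 17613 genes. At an unadjusted p under 0.05, 1 receptor gene (Htr5b) passed at P21, where 2.44% of all genes did, and 0 passed at P70, where 1.13% of all genes did. In no receptor gene were the KO and WT values without overlap at P21 or P70, against 0.46% and 0.193% of all genes. The median log2 difference between KO and WT over the receptor genes was 0.0063 at P21 and -0.04 at P70, beside 0.0042 and -0.0047 over all genes.

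The differences ranged from -0.56 for Chrna10 to 0.45 for Htr5b at P21 and from -0.32 for Htr1d to 0.20 for Drd4 at P70, all on the log2(value + 1) scale. The 95% confidence interval of a receptor gene's difference reached a median of 0.23 to either side at P21 and 0.37 at P70. These widths are not limits of detection, because a call also had to pass the adjustment over all genes. Changes somewhat larger than this could therefore be missed too. Htr5b at P21, at 0.45 and with an interval wholly above 0, was not called. The intervals were narrow for abundant members. For Chrnb2 the difference was -0.0010 with an interval of -0.10 to 0.09 at P21, and for Chrm1 it was 0.02 with an interval of -0.09 to 0.13.

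**Figure D2:**
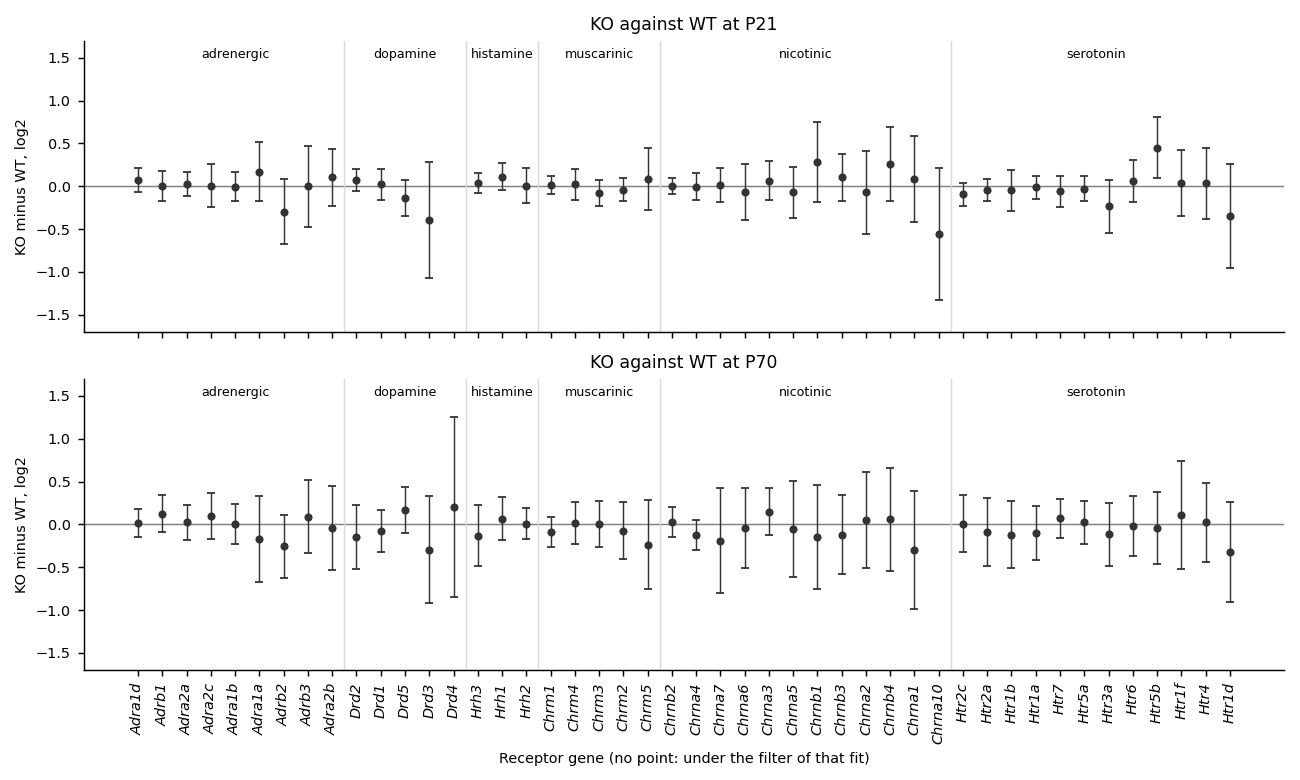
Difference between KO and WT mice (log2, vertical axis) of each receptor gene at P21 (top) and P70 (bottom), with bars for the 95% confidence interval from limma and 5 mice per genotype. The only interval that lies wholly to one side of 0 is that of Htr5b at P21 (0.45, interval 0.09 to 0.81), and no gene was called after adjustment.

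Htr5b, a Gi/o-coupled serotonin receptor of low abundance whose human counterpart is a pseudogene, read 52.4, 57.6, 78.7, 61.9 and 61.9 normalized counts in P21 KO mice and 44.2, 60.9, 34.2, 48.3 and 41.3 in P21 WT mice. All 5 KO mice lay above all but 1 of the WT mice, and the groups overlapped. The difference was 0.45 ± 0.17 (SE) with an adjusted p of 1.00 in limma, and a two-sided exact permutation test of this gene alone gave p = 0.0238, where the smallest p possible was 0.00794. At P70 Htr5b read 57.8, 38.2, 42.5, 47.5 and 70.6 in the KO group and 63.4, 45.6, 42.8, 56.9 and 51.7 in the WT group, a difference of -0.04 ± 0.19 (SE). Htr5b was thus higher in P21 KO mice only by a test that was not adjusted for the other genes.

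The most abundant members of each family were not called between KO and WT mice, and their values overlapped at both ages, which does not show that they were equal. Htr2c, the serotonin receptor most abundant per kb, read 1821.0, 1858.3, 1754.7, 2025.9 and 1913.8 in P21 KO mice and 1889.4, 2054.5, 1805.1, 2251.8 and 2015.1 in P21 WT mice. Drd2, the Gi/o-coupled receptor of striatal indirect pathway neurons and dopamine neurons, read 657.5, 606.8, 654.2, 581.2 and 630.2 in P21 KO and 607.9, 567.9, 587.0, 563.0 and 643.3 in P21 WT mice. The genotypes overlapped for both genes. Their differences were -0.09 (95% interval -0.23 to 0.04) for Htr2c and 0.08 (-0.05 to 0.20) for Drd2.

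Chrm1 read 3364.9, 3461.2, 3312.0, 3638.2 and 3535.9 in P21 KO mice and 3593.4, 3442.8, 3202.5, 3210.9 and 3671.4 in P21 WT mice. Hrh3 read 2622.6, 2885.7, 2778.9, 2515.5 and 2666.0 in P21 KO and 2746.7, 2634.9, 2717.1, 2321.5 and 2679.5 in P21 WT mice. Both genes overlapped over most of their range, with differences of 0.02 and 0.04. At P70 their values were wider. Chrm1 read 3559.1, 3306.9, 3408.8, 3353.7 and 4099.4 in P70 KO and 3684.0, 3597.1, 3508.6, 3811.8 and 4213.2 in P70 WT mice, and Hrh3 read 2461.6, 2818.1, 2403.0, 2230.0 and 4011.7 in P70 KO and 2833.4, 2684.6, 2942.4, 2624.8 and 4026.9 in P70 WT mice. In each P70 group the mouse numbered 5 was the highest for both genes. The differences between KO and WT were -0.09 (95% interval -0.26 to 0.09) for Chrm1 and -0.13 (-0.49 to 0.22) for Hrh3. Without the mice numbered 5 they were -0.10 and -0.17, and no receptor gene was called (adjusted p = 0.999 in limma), while 3 of 44 (6.82%) had an unadjusted p under 0.05, beside 3.69% of all 17650 genes. The 3 were Chrm1, Hrh3 and Chrna4, all with lower means in KO mice, and were named after their values were seen.

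The genotype difference was not shown to change with age for any receptor gene. In the test of the age by genotype interaction 0 of 44 receptor genes were called by limma, beside 0% of all 17637 genes, and 1 had an unadjusted p under 0.05, beside 1.68% of all genes. It was Drd5, a Gs-coupled dopamine receptor, which read 81.2, 104.2, 95.4, 99.7 and 94.8 in P21 KO, 101.2, 112.3, 105.6, 103.6 and 98.3 in P21 WT, 118.9, 86.2, 107.7, 115.9 and 100.8 in P70 KO and 93.7, 84.3, 90.9, 94.9 and 103.8 in P70 WT mice. KO values were mostly the lower at P21 and mostly the higher at P70, and the groups overlapped at both ages. The interaction was 0.31 ± 0.14 (SE, log2), with a 95% interval of 0.0049 to 0.61 and an adjusted p of 1.00 in limma.

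Between P21 and P70, a small number of receptor genes changed, and 5 of them did so in the same direction in WT and KO mice. The WT and KO differences share no animals. Both were tested in a single fit with a shared variance, however, so the calls in WT and KO mice are not independent. In a fit of KO mice alone, Chrna6, among these 5 genes, was not called (limma adjusted p = 0.052). Adra1d, Adra2c and Hrh1 rose and Adra2a and Chrna6 fell in both genotypes. The changes were of modest size, with fold changes of 1.3 to 1.47 for those that rose and of 0.62 to 0.78 for those that fell. Of 44 receptor genes tested in WT mice, 3 were called higher and 4 lower at P70, beside 5.53% and 5.62% of all 17637 genes. In KO mice 3 were called higher and 3 lower, beside 5.47% and 6.4% of all genes. As shares these are 6.82% higher and 9.09% lower in WT and 6.82% and 6.82% in KO mice, near the shares of all genes. With a fold change of at least 1.5 also required, none was called higher and only Chrna6 lower in either genotype, where the shares of all genes were 1.47% higher and 2.04% lower in WT mice and 1.51% and 2.4% in KO mice. The median age difference over the receptor genes was -0.04 in WT and -0.06 in KO mice, beside 0.0013 and -0.01 over all genes.

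The noradrenaline receptors held 3 of the 5 genes, and the alpha-2 subtypes went in opposite directions. Adra2a, the main alpha-2 autoreceptor and postsynaptic receptor (GRCm38 chromosome 19, 54044151 to 54048982), read 803.5, 876.2, 806.0, 880.6 and 897.9 in P21 WT and 663.9, 638.5, 611.5, 633.6 and 796.1 in P70 WT mice. In KO mice it read 795.7, 899.6, 943.8, 908.9 and 792.3 at P21 and 670.2, 659.5, 630.3, 651.4 and 784.6 at P70. The ages did not overlap in either genotype, and the P70 mice numbered 5 came close to the lowest P21 mice. Adra2a fell by 0.36 ± 0.08 (SE, log2) in WT mice and by 0.35 ± 0.08 in KO mice (limma adjusted p = 0.00523 and 0.00522).

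Adra2c (chromosome 5, 35278319 to 35281763), the subtype prominent in striatum, read 440.6, 421.1, 500.4, 368.8 and 507.8 in P21 WT and 659.3, 552.0, 542.8, 596.9 and 747.9 in P70 WT mice. In KO mice it read 431.4, 510.6, 508.2, 345.2 and 464.1 at P21 and 541.9, 664.9, 664.1, 641.2 and 813.3 at P70. All P70 mice lay above all P21 mice in both genotypes. Adra2c rose by 0.47 ± 0.12 (SE, log2) in WT mice and by 0.56 ± 0.12 in KO mice (limma adjusted p = 0.0169 and 0.00459), and the WT call was lost without P21 WT mouse 4 (0.40, adjusted p = 0.0596). Per kb, Adra2a went from 176 to 138 and Adra2c from 130 to 180 in WT mice, so the order of their means was different at P21 and P70, which was not tested.

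Adra1d (chromosome 2, 131545850 to 131562283), a Gq/11-coupled alpha-1 receptor of cortex and hippocampus, read 484.2, 503.4, 484.7, 442.5 and 493.3 in P21 WT and 634.9, 624.6, 624.2, 723.8 and 647.7 in P70 WT mice. In KO mice it read 488.4, 534.8, 452.3, 526.3 and 534.3 at P21 and 689.2, 618.5, 677.2, 632.9 and 669.0 at P70. The ages were clearly apart in both genotypes. Adra1d rose by 0.43 ± 0.07 (SE, log2) in WT and by 0.38 ± 0.07 in KO mice, with the smallest adjusted p of the receptor genes (limma, 1.69e-04 and 6.08e-04). The other alpha-1 receptors Adra1a and Adra1b and the beta receptors were not called at any comparison, and Adrb1 differed by -0.07 (95% interval -0.26 to 0.12) in WT mice.

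Hrh1 (chromosome 6, 114397936 to 114483296), the Gq/11-coupled histamine receptor whose blockade in brain is sedative, read 281.7, 242.0, 258.1, 253.4 and 278.0 in P21 WT and 440.4, 397.7, 309.8, 391.1 and 319.5 in P70 WT mice. In KO mice it read 296.5, 280.5, 296.0, 253.4 and 292.7 at P21 and 364.8, 405.3, 348.5, 436.3 and 377.0 at P70. Every P70 mouse was above every P21 mouse of its genotype. Hrh1 rose by 0.49 ± 0.09 (SE, log2) in WT and by 0.44 ± 0.09 in KO mice (limma adjusted p = 0.00163 and 0.00363). Hrh3 was not called, with a difference of 0.19 (95% interval -0.08 to 0.46) in WT and 0.02 (-0.25 to 0.28) in KO mice, and without the P70 mice numbered 5 it was 0.08 in WT and -0.12 in KO mice, where its sign changed.

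Chrna6 (chromosome 8, 27403212 to 27413944), a nicotinic subunit found mainly in dopamine and noradrenaline neurons and in the visual pathway, read 82.6, 74.2, 68.1, 73.8 and 95.9 in P21 WT and 58.3, 33.4, 59.9, 42.8 and 51.8 in P70 WT mice. In KO mice it read 61.7, 70, 100, 63.7 and 85.5 at P21 and 33.2, 62.4, 45.7, 44.8 and 52.5 at P70. The ages did not overlap in WT mice and overlapped by 1 mouse in KO mice. Chrna6 fell by 0.69 ± 0.19 (SE, log2) in WT and by 0.67 ± 0.19 in KO mice (limma adjusted p = 0.0179 and 0.0218). Its call was lost in WT mice without P21 mouse 5 or P70 mouse 2 (limma adjusted p = 0.0512 and 0.0584), and in KO mice without P21 mouse 3 or 5 or P70 mouse 1 (0.0656, 0.0530 and 0.0623). Fewer cells of a type and less RNA per cell cannot be told apart in whole brain.

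A few markers of monoamine neurons also fell. Of 8 such markers tested, 1 was called lower at P70 in WT mice (Slc6a4, the serotonin transporter, -0.56 ± 0.12 SE, limma adjusted p = 0.00391) and 3 in KO mice, with no marker called higher, where 5.62% and 6.4% of all genes were called lower. The 3 were Slc6a4 (-0.49), Slc6a3, the dopamine transporter (-1.46 ± 0.39 SE, limma adjusted p = 0.0178), and Slc18a2, the vesicular monoamine transporter (-0.39). No marker had an interaction that was called, so a difference between the genotypes was not shown. The median age difference of the 8 markers was -0.29 in WT and -0.35 in KO mice. The summed level of the list, whose 9 genes were all detected, was 1651 to 2150 in P21 WT and 1182 to 1673 in P70 WT mice, and 1752 to 2477 in P21 KO and 1096 to 1686 in P70 KO mice. Its part in the difference of Chrna6 was not tested. Other nicotinic genes were not called, among them Chrnb3 and Chrna4, the usual partners of Chrna6.

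**Figure D3:**
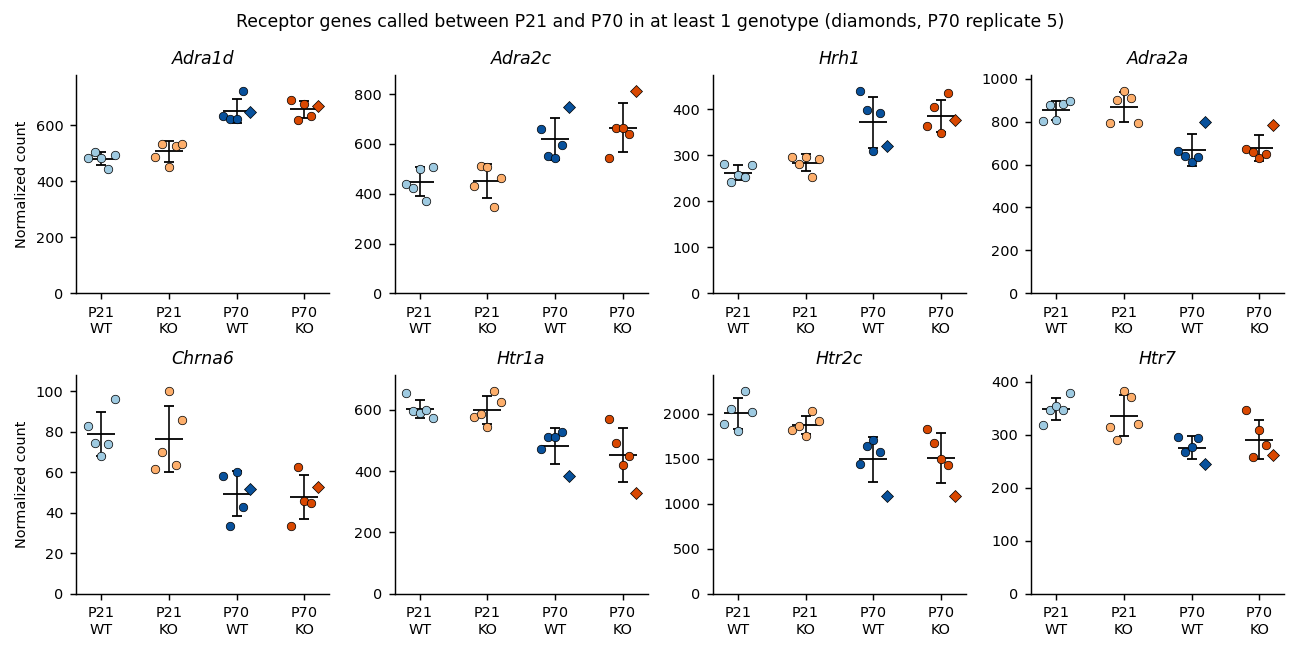
Normalized count (vertical axis, from 0) in each of 5 mice per group for the 8 receptor genes called between P21 and P70 in WT mice, KO mice or both, with the group mean and SD as lines and the P70 mice numbered 5 as diamonds. Adra1d, Adra2c and Hrh1 lie higher and Adra2a and Chrna6 lower at P70 in both genotypes, and the diamonds are the lowest P70 points for Htr1a and Htr2c.

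The serotonin family held 3 genes that were called lower at P70 in 1 genotype only, Htr2c and Htr7 in WT mice and Htr1a in KO mice. Htr1a and Htr7 were singled out after their values were seen. None of the 3 had an interaction that was called, so a difference between the genotypes was not shown. Htr2c, the Gq/11-coupled receptor abundant in choroid plexus and in many neurons, read 1889.4, 2054.5, 1805.1, 2251.8 and 2015.1 in P21 WT and 1444.1, 1645.8, 1712.3, 1578.7 and 1084.0 in P70 WT mice. It read 1821.0, 1858.3, 1754.7, 2025.9 and 1913.8 in P21 KO and 1826.1, 1677.1, 1497.7, 1431.1 and 1090.9 in P70 KO mice. The ages were apart in WT mice and overlapped through 1 P70 KO mouse. Htr2c fell by 0.44 ± 0.12 (SE, log2) in WT mice (limma adjusted p = 0.0222), and the difference was -0.34 in KO mice (adjusted p = 0.0796). The WT call was lost without P21 mouse 4 or P70 mouse 5 (limma adjusted p = 0.0693 and 0.0553), and a KO call was gained without P70 KO mouse 1 (0.0361).

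Htr1a, the main serotonin autoreceptor and a postsynaptic receptor of hippocampus, read 578.2, 585.4, 545.4, 661.9 and 625.1 in P21 KO and 569.4, 491.9, 421.8, 449.6 and 329.3 in P70 KO mice. In WT mice it read 654.1, 596.5, 590.7, 601.6 and 575.0 at P21 and 471.7, 512.4, 512.5, 527.6 and 383.5 at P70. Htr1a fell by 0.42 ± 0.11 (SE, log2) in KO mice (limma adjusted p = 0.0173), and its difference was -0.33 in WT mice (adjusted p = 0.0627), where the ages did not overlap. The KO call was lost without P21 KO mouse 4 (limma adjusted p = 0.0530).

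Htr7, a Gs-coupled receptor of thalamus and hypothalamus, read 318.9, 345.7, 354.2, 346.3 and 378.3 in P21 WT and 296.3, 266.6, 276.9, 293.4 and 244.5 in P70 WT mice. In KO mice it read 315.1, 290.5, 382.2, 371.7 and 320.7 at P21 and 345.6, 258.0, 308.9, 280.1 and 261.0 at P70. The ages were apart in WT and overlapped in KO mice. Htr7 fell by 0.34 ± 0.09 (SE, log2) in WT mice (limma adjusted p = 0.0223), and its difference was -0.21 in KO mice (adjusted p = 0.171). The WT call was lost without P21 mouse 5 or P70 mouse 2 or 5 (limma adjusted p = 0.0588, 0.0511 and 0.0548). Over the 12 serotonin receptor genes the age difference was below 0 for 8 in WT and 9 in KO mice. The medians were -0.11 and -0.17, beside 0.0013 and -0.01 over all genes. These counts and medians depend in part on the P70 mice numbered 5. Without those mice Htr2a (0.04 in WT and 0.0081 in KO mice) and Htr4 (0.10 and 0.10) lay above 0 instead of below it. No other gene of the 12 changed sign.

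**Figure D4:**
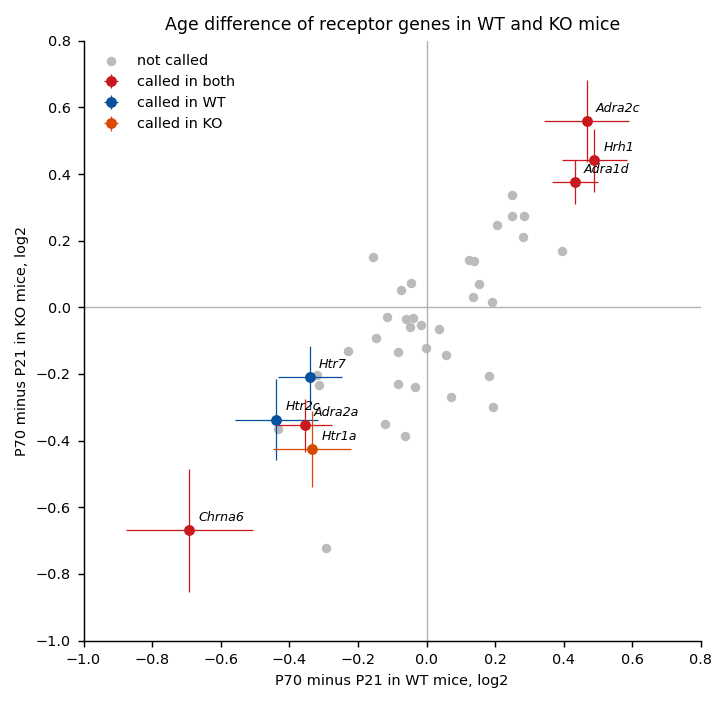
Difference between P70 and P21 (log2) of 44 receptor genes in WT mice (horizontal axis) and KO mice (vertical axis), coloured by where the gene was called and with SE bars for called genes. Adra2c, Hrh1 and Adra1d lie at the upper right and Chrna6 at the lower left, and the genes called in 1 genotype lie on the same side of 0 in the other.

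Dopamine and muscarinic receptors were not called between ages in this fit. Drd2 read 607.9, 567.9, 587.0, 563.0 and 643.3 in P21 WT and 809.1, 664.8, 716.0, 764.4 and 982.3 in P70 WT mice. In P70 KO mice it read 466.6, 739.2, 723.1, 708.0 and 975.3. The WT ages did not overlap, while the first P70 KO mouse was the lowest of all 20. The difference was 0.40 ± 0.13 (SE, log2) in WT mice (limma adjusted p = 0.0608) and 0.17 ± 0.13 in KO mice (adjusted p = 0.474), and without the P70 mice numbered 5 it was 0.31 and 0.05. The summed level of 8 markers of striatal projection neurons ranged over 21424 to 23835 in P21 WT, 22830 to 26523 in P70 WT, 21797 to 23982 in P21 KO and 18803 to 26004 in P70 KO mice, and its part in the Drd2 values was not tested. Chrm1 differed by 0.14 in WT and 0.03 in KO mice, and without the P70 mice numbered 5 by 0.09 and -0.02, a change of sign in KO mice. Chrm4, the Gi/o-coupled muscarinic receptor of striatum, differed by 0.28 and 0.27 (limma adjusted p = 0.0715 and 0.0813). In the fit blocked on replicate number, Drd2 and Chrm4 were called higher in WT mice (limma adjusted p = 0.0384 and 0.0466).

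The P70 mice numbered 5 shared a pattern across the receptor genes. Relative to the other 4 mice of their group, 15 of 45 receptor genes were higher in both and 19 lower in both, together 75.6%, beside 84.4% of all 17613 genes. For the other P70 numbers the share of receptor genes on the same side was 46.7% to 60.0%, beside 53.6% to 63.6% of all genes. For the P21 numbers it was 51.1% to 68.9%, beside 45.6% to 67.5%. Both mice numbered 5 at P70 deviated the same way by more than 0.5 (log2) in 13 receptor genes, 28.9%, beside 19.7% of all genes. For the other P70 numbers this held for none, beside 1.84% to 2.25% of all genes, and for the P21 numbers for 0 to 4, beside 0.965% to 3.11%. Hrh3, Drd2, Drd4 and Adra2b were among the higher and Chrna7, Htr1f, Htr2a and Chrm5 among the lower, named after their values were seen. Hrh3 was 1.62-fold and 1.45-fold the level of the other KO and WT mice. Chrna7, the subunit of the homomeric alpha-7 nicotinic receptor, read 110.7 in the KO and 185.1 in the WT mouse, beside 273.6 to 364.0 and 296.8 to 318.7 in the other mice.

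The direction went with the base composition of the transcripts. The longest annotated transcripts of the 15 receptor genes higher in both mice had a median GC content of 53.6% and a median length of 2904 bases, and those of the 19 lower in both had 46% and 4282 bases. Over all genes the corresponding values were 53.9% and 2576 bases for those higher in both and 45.1% and 4192.5 bases for those lower in both. The labels give no batch or RNA quality that sets these mice apart, and the part of either was not tested.

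**Figure D5:**
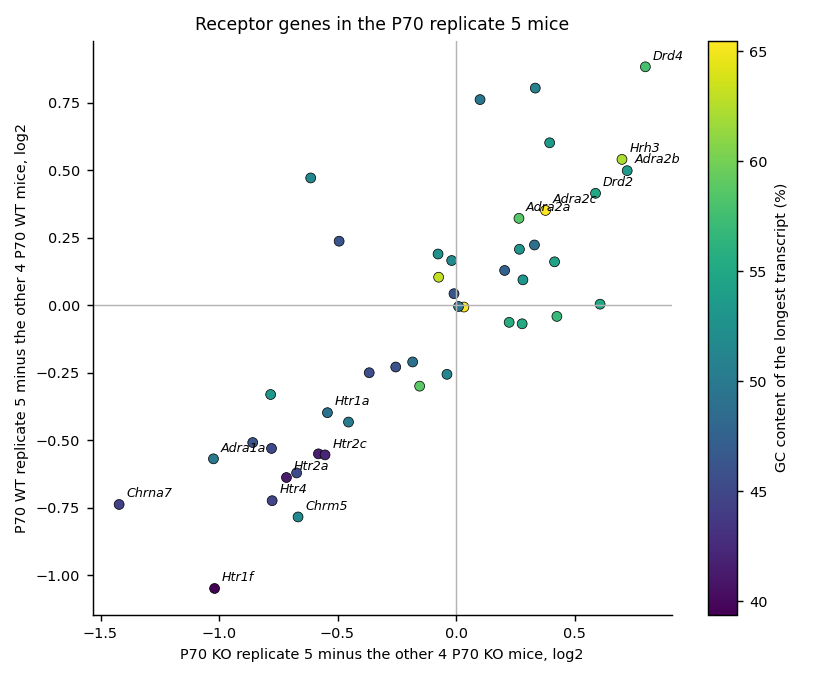
Deviation of the P70 KO mouse numbered 5 (horizontal axis) and of the P70 WT mouse numbered 5 (vertical axis) from the mean of the other 4 mice of their group (log2), for 45 receptor genes coloured by the GC content of the longest transcript. In both mice 15 genes lie above 0 and 19 below 0, and the median GC content was 53.6% for the first and 46% for the second, with exceptions such as Chrm5 (51.7%) and Adra1a (50.1%) far below 0.

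Without these mice the 5 age differences shared by WT and KO mice were called again in both genotypes. In WT mice 12 receptor genes were then called, 6 higher and 6 lower, where 21.1% of all genes were called, and in KO mice 9, 4 higher and 5 lower, where 22% of all genes were. Adra2a then differed by -0.42 and -0.41, Adra2c by 0.40 and 0.48, Adra1d by 0.43 and 0.37, Hrh1 by 0.54 and 0.45 and Chrna6 by -0.72 and -0.71 (log2, WT and KO). Htr2c and Htr1a were called lower in both genotypes, and Htr1b, a Gi/o-coupled terminal autoreceptor, was called higher in both (0.39 and 0.37, limma adjusted p = 0.0157 and 0.0198). Drd2 (0.31) and Chrm4 (0.29) were called higher and Htr3a (-0.44) and Htr7 (-0.30) lower in WT mice, and Chrnb1 (-0.79), the muscle-type beta subunit, lower in KO mice.

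Base composition also went with the age calls over all genes. In WT mice genes called higher at P70 had a median transcript GC content of 53.6% and those called lower 48.7%, beside 49.2% for genes not called, and in KO mice the values were 53.2%, 48.6% and 49.3%. Among the receptor genes that rose the GC content was 65.4% for Adra1d, 65.5% for Adra2c and 51.4% for Hrh1, and among those that fell it was 58.6% for Adra2a and 47.6% for Chrna6. The part of base composition or length in these differences was not tested.

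Among genes that make, carry and break down the transmitters, a few fell between P21 and P70. Of 22 such genes tested, 0 were called higher and 3 lower in WT mice, and 0 higher and 4 lower in KO mice, where 5.62% and 6.4% of all genes were called lower, with a median difference of -0.21 in both genotypes, beside 0.0013 and -0.01 over all genes. The genes called were Slc6a4, Slc22a3, a low-affinity amine transporter (-0.45), and Hnmt, which inactivates histamine (-0.36), in WT mice, and Slc6a4, Slc6a3, Slc18a2 and Ddc, the decarboxylase of serotonin and dopamine synthesis (-0.55), in KO mice. None of 22 was called between KO and WT mice at either age or in the interaction. A difference between the genotypes in their change with age was therefore not shown.

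Genes of receptor signalling and assembly gave 3 calls higher and 2 lower among 42 tested in WT mice and 5 higher and 2 lower in KO mice, with medians of 0.04 and 0.03. The shares called higher and lower over all genes were 5.53% and 5.62% in WT and 5.47% and 6.4% in KO mice. Rgs4, which shortens Gi/o and Gq/11 signals (-0.44 in WT and -0.46 in KO mice), and Lypd1, a membrane-anchored modulator of nicotinic receptors (-0.32 and -0.20), were lower in both genotypes. Arrb1, which encodes an arrestin (0.20 and 0.18), and Gnaz, a Gi/o family alpha subunit (0.18 and 0.24), were higher in both. No gene of this list was called between KO and WT mice at either age or in the interaction.

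Markers of other cell types give the setting of the age comparison. All 6 oligodendrocyte markers were called lower at P70 in both genotypes, and their summed level went from 379578 to 428153 in P21 WT to 160160 to 183859 in P70 WT mice. Of 6 choroid plexus markers, Kl and Kcnj13 were called higher in WT mice, 1 marker was called higher in KO mice and none in the interaction. The summed level of that list, which stands beside Htr2c, was 12209 to 18196 in P21 WT, 12204 to 26861 in P70 WT, 13942 to 26588 in P21 KO and 15064 to 26854 in P70 KO mice. Of the neuron markers, Snap25 was called higher and Stmn2 lower in both genotypes. The part of these lists in the receptor values was not tested.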

How the data were processed

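Whole-brain RNA of 20 male mice, 5 for each of P21 KO, P21 WT, P70 KO and P70 WT, was sequenced from poly-A libraries. The deposited signal values cover 19463 genes and are read counts that the authors estimated by Salmon 1.1.0 (GRCm38, corrected for GC bias), summarised per gene by tximport and scaled by DESeq2 (version 1.26.0 per the submitters' processing notes). Whole reads could not be recovered from them, so depth per mouse is unknown and no count test was used. IDs were matched to GENCODE M21 (19447 matched), and level per kb divides by merged exon length. Groups were taken from the sample labels.

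Values were fitted as log2(value + 1) with limma 3.58.1 in R 4.3.3 (lmFit, eBayes with trend). Genes entered a fit if their mean over its mice reached 10, and p-values were adjusted over all of them (Benjamini-Hochberg, threshold 0.05). KO was compared with WT within each age (10 mice), and ages and the interaction in a single fit of all 20 mice. The KO and WT comparisons and the age comparisons share mice. The scale understates changes of low genes. Of the 46 receptor genes, Drd4 and Chrna10 were under the filter in the age fits, Drd4 at P21 and Chrna10 at P70. No source says whether brains came from separate litters. The p-values treat mice as independent and may be too small if some were littermates. Promoter sequences are RefSeq's (GRCm38.p6). The fits were tested on simulated data.

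The receptor genes and the other gene lists were chosen with earlier results of these data known. The genes given mouse by mouse were the most abundant per kb of each transmitter's receptors, those with an unadjusted p under 0.05 or groups without overlap between KO and WT, those called between ages in both genotypes, and those with an unadjusted p under 0.05 in the interaction. Alternatives were the trend, pseudocounts of 0.5 and 8, filters at 1 and 50, quantile and upper-quartile scaling, a replicate block, a single fit of all mice or of 1 genotype, other thresholds, each mouse left out, and both P70 mice numbered 5 left out.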

Additional observations from a re-analysis of the deposited data

Results flagged for a closer look

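In 5 of 52 groups tested (13 receptor genes in 4 groups of 5 mice) the highest or lowest mouse lay farther from its neighbour than Dixon's criterion at 95% allows, and chance alone gives about 1 in 20 such groups. Of these, 3 were P70 mice numbered 5. Hrh3 was 4026.9 in the P70 WT mouse numbered 5, where the next mouse was at 2942.4. Adra2a was 784.6 in the P70 KO and 796.1 in the P70 WT mouse of that number, where the next mice were at 670.2 and 663.9. The others were Adra1d in the P70 WT mouse numbered 4, at 723.8 with the next at 647.7, and Hrh3 in the P21 WT mouse numbered 4, the lowest at 2321.5 with the next at 2634.9.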

How the results depend on the processing

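No receptor gene was called between KO and WT mice or in the interaction under any alternative, and no called difference changed direction. KO and WT mice with the same number are different animals. The deviations of same-numbered mice correlated at -0.009 to 0.26 at P21 and 0.075 to 0.71 at P70, the highest for number 5. The labels do not say what a shared number means. The main fits did not pair mice by number, and what same-numbered mice share was not tested. With the replicate block 10 receptor genes were called between ages in WT mice, 5 of them higher, where 13% of all genes were called. The main fit called 7, where 11.1% of all genes were. Without both P70 mice numbered 5 the count was 12 in WT mice (6 higher), and 5 were lower in KO mice. The shares of all genes were then 21.1% and 22%. At an adjusted p under 0.1 the count was 11 in WT mice (5 higher), with 5 lower in KO mice, beside 16.2% and 16.5% of all genes. With at least 1.5-fold it was 1 in each genotype (0 higher, 1 lower), beside 3.51% and 3.91% of all genes. In a fit of KO mice alone, where 8.32% of all genes were called, 1 was lower, since Chrna6 (adjusted p = 0.052) and Htr1a (0.0615) were lost. Leaving out each mouse in turn gave 2 to 4 lower genes in WT mice, with 2 without P21 WT mouse 5 (Chrna6 and Htr7 lost) or P70 WT mouse 5 (Htr7 and Htr2c lost). Other single mice each ended the call of Adra2c, Chrna6, Htr1a, Htr2c or Htr7 in 1 genotype, as given beside those genes. Htr1a was also called in WT mice with upper-quartile scaling, with the block and in a fit of WT mice alone (limma adjusted p = 0.0361, 0.0380 and 0.0399). Drd2 was called in WT mice with the block (with Chrm4), in WT mice alone and without P70 WT mouse 2 (limma adjusted p = 0.0384, 0.0241 and 0.0481). Some differences near 0 that were not called changed sign. Between ages in KO mice, Hrh3 and Chrm1 became -0.12 and -0.023 without both P70 mice numbered 5, and over single mice left out ranged from -0.12 to 0.0878 and from -0.023 to 0.0545. Between KO and WT, the same ranges were -0.0061 to 0.0432 for Chrm1 and -0.0019 to 0.0654 for Hrh3 at P21, and -0.10 to 0.12 for Htr2c, -0.0024 to 0.0537 for Adra1d and -0.16 to 0.0554 for Htr5b at P70. The causes of the other changes were not tested. Low genes such as Drd3 and Chrna1 limit what can be seen.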
